A study of Mus musculus with 12 samples.

Results

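The 10 genes described here encode the core of the mTOR complexes and the proteins that join them to the insulin receptor: Mtor, Rptor, Rictor, Mlst8, Rheb, Tsc1, Tsc2, Akt1, Irs1 and Irs2. They were picked by gene symbol alone, and all 10 had a row among the 17995 genes of the table. RNA-seq was performed on 2 mouse testis cell lines, C18-4 (a spermatogonial stem cell line) and TM4 (a Sertoli cell line), with 12 libraries in all. In each line, 3 libraries came from cells given lentivirus with shRNAs against the muscarinic acetylcholine receptor M5 (shM5), and 3 came from cells given a control shRNA (shNC). The question was how expression changes in each line when M5 is knocked down.

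All 4 groups therefore carried a lentiviral shRNA construct, and no untransfected cells were compared. shM5 was a mixture of shRNAs to 3 positions in the M5 mRNA, so the effects of single shRNAs cannot be told apart. C18-4 cells were grown in DMEM/F12 and TM4 cells in DMEM, so the line and its medium cannot be told apart. Each line is one established culture, labelled as strain IRC in every group. The sources do not say whether the 3 libraries of a group were separate cultures, so p-values measure only the spread between libraries, which may be technical.

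Insulin and insulin-like growth factors act through their receptors on the docking proteins Irs1 and Irs2, which recruit phosphoinositide 3-kinase and thereby activate Akt1. Akt1 inhibits the Tsc1-Tsc2 complex, which otherwise turns off the small GTPase Rheb, and GTP-bound Rheb activates the kinase mTOR on the lysosome. mTOR works in mTORC1, which Rptor defines and which promotes protein synthesis, and in mTORC2, which Rictor defines and which phosphorylates Akt. Mlst8 is a subunit of both complexes. In the testis, mTORC1 is known for its part in the balance of self-renewal and differentiation of spermatogonia, and both complexes for their part in the barrier that Sertoli cells form.

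The libraries were alike in depth but not in their profiles. The size of the steps between low values put their relative depth between 0.982 and 1.022, and the mean library at about 11.7 M reads. At that depth Irs1 would rest on about 261 reads and Akt1 on about 3406, for counting errors of about 6.19% and 1.71%. Replicate 3 of shNC in TM4 cells stood apart from the other shNC libraries of its line. Its root mean square difference in log2 expression was 0.64 and 0.642 from replicates 1 and 2 of shNC, and 0.202 to 0.257 from the 3 shM5 libraries. Its label was kept as given, and whether libraries were exchanged was not tested, so each TM4 difference is given with and without this library where its call or size depended on it. Leaving it out keeps only replicates 1 and 2 of TM4 shNC, a choice made from these same profiles. In that fit 67.4% of all genes passed an adjusted p of 0.05. The adjusted p-values without this library are therefore descriptions and do not set a gene apart. In C18-4 cells, replicate 3 of each treatment lay farther from replicates 1 and 2 (0.376 to 0.491) than those lay from each other (0.2 to 0.326). The targeted gene, Chrm5, was listed at 0 or 0.01 RPKM (the read number scaled for gene length and library size) in all 12 libraries. This mRNA could therefore serve as a check neither of the knockdown nor of the labels. For the protein, the paper reports less M5 with shM5 in both lines, by immunofluorescence. The markers fitted the labels only in part. In C18-4 cells, Ddx4, Dazl, Zbtb16 and Ret did not exceed 0.05 RPKM and Kit was at 0, Gfra1 was at 0.12 to 0.34 RPKM, and Id4 and Etv5 were at 1.64 to 4.71 and 1.63 to 2.29 RPKM, while the Sertoli cell gene Wt1 was at 53.93 to 72.32 RPKM. In TM4 cells, Sox9 was at 1.11 to 1.74 RPKM, Inhbb at 11.97 to 16.76 RPKM, Wt1 at 0.06 to 0.15 RPKM and Amh at 0.08 to 0.19 RPKM. The spermatogonial genes Etv5 (5.98 to 7.49 RPKM) and Bcl6b (3.56 to 9.66 RPKM) were higher in TM4 than in C18-4 cells, where Bcl6b did not exceed 0.09 RPKM. Gfra1, Id4 and Lhx1 were lower in TM4 cells, at up to 0.08, 0.2 and 0 RPKM. Summed over 14 spermatogonial genes, C18-4 libraries reached 4.59 to 6.64 RPKM and TM4 libraries 9.72 to 17.27 RPKM. For 15 Sertoli cell genes the sums were 79.4 to 92.99 and 47.82 to 95.75 RPKM. Genes of myoid cells and fibroblasts, summed over 11 genes, reached 553.92 to 800.2 RPKM in C18-4 and 1431.04 to 2091.89 RPKM in TM4 cells, and their part in the results below was not tested. In bulk samples of this kind, fewer cells of a type and less RNA per cell cannot be told apart.

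All 10 genes were expressed in every library, at levels that spanned from 1.88 RPKM for Irs1 to 221.73 RPKM for Rheb. Akt1 and Rheb were the most abundant in each group, followed by Tsc2 and then Rptor, and Irs1 was the lowest in all 4 groups. In C18-4 shNC cells the order by mean RPKM, which is per length, was Akt1, Rheb, Tsc2, Rptor, Irs2, Mlst8, Mtor, Rictor, Tsc1 and Irs1. In that order Akt1 and Rheb overlapped between libraries, as did Tsc2 and Rptor, Irs2 and Mlst8, and Rictor and Tsc1. In TM4 shNC cells Rheb stood first, at 177.69 ± 74.6 RPKM (SD, n = 3), but its libraries overlapped those of Akt1, at 79.7 ± 32.7 RPKM (SD, n = 3). In shM5 cells of both lines Akt1 was first and Rheb was next, without overlap.

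**Figure D1:**
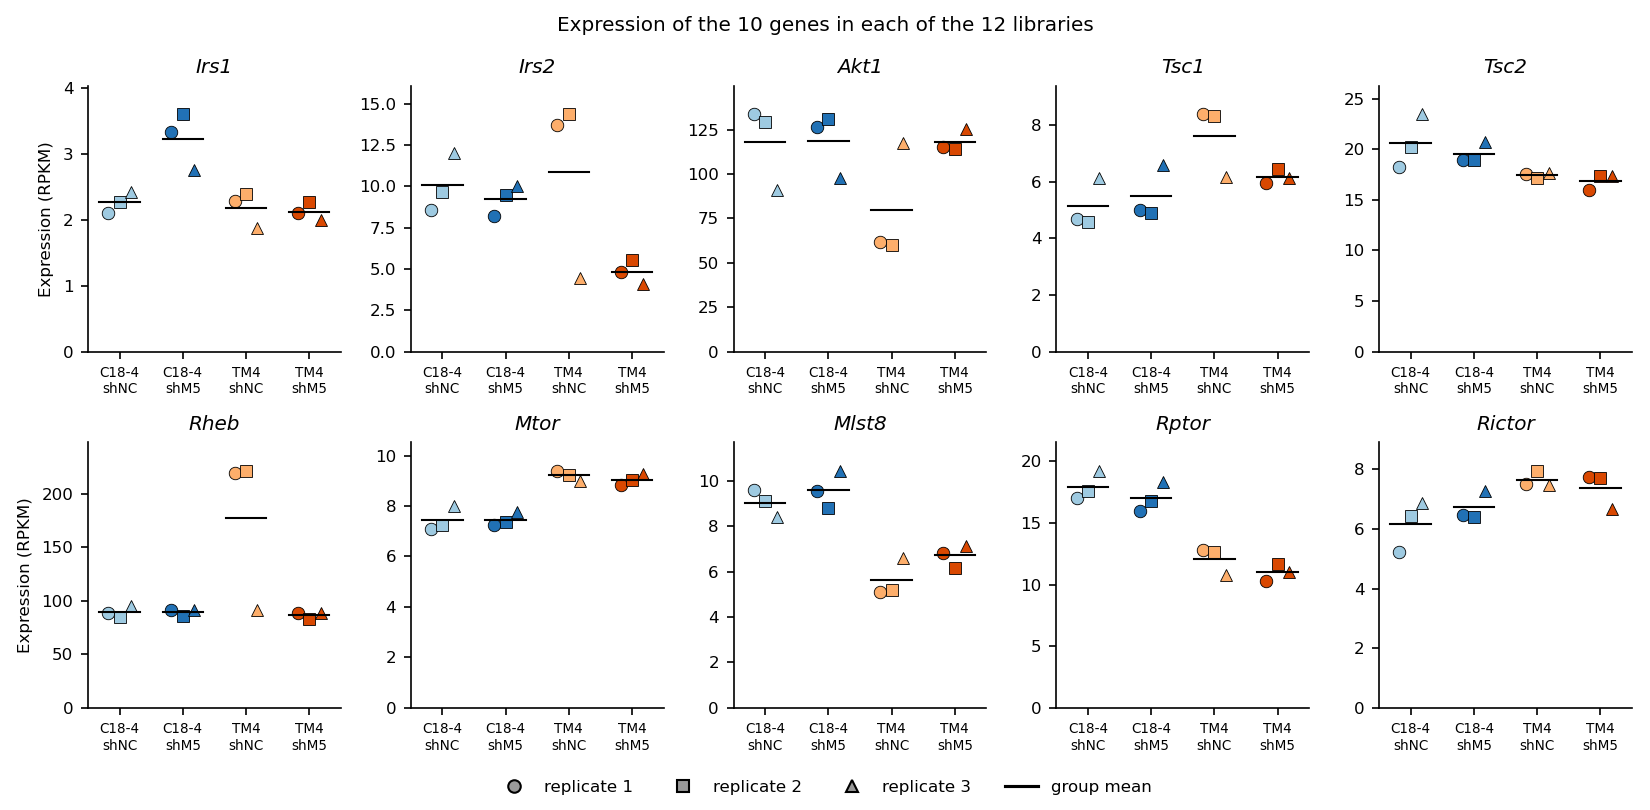
Expression of the 10 genes (RPKM, linear axis from 0) in each library of the 4 groups, with circles, squares and triangles for replicates 1, 2 and 3 and a line at the group mean (n = 3). Rheb and Irs2 were high and Akt1 low in replicates 1 and 2 of TM4 shNC, whereas replicate 3 of that group lay near the shM5 libraries, and Irs1 was higher in every C18-4 shM5 library than in any C18-4 shNC library.

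Irs1 (Entrez Gene 16367), a docking protein that insulin and IGF receptors phosphorylate, was the only one of the 10 genes whose C18-4 treatments did not overlap. It was at 2.11, 2.27 and 2.42 RPKM in shNC replicates 1, 2 and 3 and at 3.34, 3.6 and 2.75 RPKM in the corresponding shM5 libraries. Every shM5 library lay above every shNC library, and how many of all genes separated in this way was not counted. The mean was 2.27 ± 0.155 RPKM with shNC and 3.23 ± 0.436 RPKM with shM5 (SD, n = 3 each), a difference of 0.49 ± 0.15 (SE) on the log2(RPKM + 0.1) scale. This did not pass the threshold in limma (adjusted p = 0.25 over all genes tested, of which 0.586% passed), nor with the replicate number as a block (adjusted p = 0.053). When replicate 3 of both groups was left out, the libraries that stood apart, it was 0.64 (adjusted p = 0.0051), in a fit where 26.2% of all genes passed. In TM4 cells Irs1 was at 2.28, 2.39 and 1.88 RPKM with shNC and at 2.10, 2.27 and 2.0 RPKM with shM5, and the groups overlapped. Irs1 shared 30.6% of its 35-base stretches with the antisense gene Gm9747. That gene was not among those with deposited values, so its level is not known. Reads from the 2 strands could not be told apart, because the strand setting of the counting is not given in the sources used here.

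Irs2 (Entrez Gene 384783), the other widely used docking protein, varied most of the 10 genes over the 12 libraries. In TM4 cells it was at 13.73, 14.34 and 4.42 RPKM with shNC and at 4.84, 5.52 and 4.06 RPKM with shM5. Replicates 1 and 2 of shNC were high, and replicate 3 lay within the range of shM5. The difference over all 6 libraries was -0.99 ± 0.45 (log2, SE; adjusted p = 0.20). In C18-4 cells Irs2 was at 8.54, 9.63 and 11.99 RPKM with shNC and at 8.18, 9.47 and 10.03 RPKM with shM5, so the treatments overlapped. When replicate 3 of TM4 shNC was left out, Irs2 was 2.90-fold lower with shM5 than with shNC (log2 difference -1.54, adjusted p = 2.48e-05). In that fit 67.4% of all genes passed.

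Akt1 (Entrez Gene 11651), the kinase that carries the signal from phosphoinositide 3-kinase to Tsc2, had the opposite pattern in TM4 cells. It was at 61.58, 60.06 and 117.38 RPKM with shNC and at 115.18, 114.32 and 125.39 RPKM with shM5. Again replicate 3 of shNC lay among the shM5 libraries. The log2 difference was 0.64 ± 0.26 (SE; adjusted p = 0.19) with all 6 libraries. It was 0.96 (1.94-fold higher with shM5; adjusted p = 3.87e-06) without replicate 3 of shNC, where 67.4% of all genes passed. In C18-4 cells Akt1 was at 133.59, 129.45 and 91.12 RPKM with shNC and at 126.36, 130.98 and 97.91 RPKM with shM5. There the libraries differed by replicate, with replicate 3 lowest in both treatments, and the group means differed by 0.01 ± 0.17 (log2, SE).

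Tsc1 (Entrez Gene 64930), which stabilises Tsc2, was at 8.37, 8.30 and 6.15 RPKM in TM4 shNC and at 5.95, 6.45 and 6.13 RPKM in TM4 shM5 libraries. Replicates 1 and 2 of shNC were higher than the other 4 libraries. The difference was -0.28 ± 0.14 (log2, SE; adjusted p = 0.21), and -0.43 (adjusted p = 0.0011) without replicate 3 of shNC. In C18-4 cells it was at 4.67, 4.59 and 6.13 RPKM with shNC and at 4.99, 4.88 and 6.60 RPKM with shM5. Replicate 3 was the highest in both C18-4 treatments, and the treatments overlapped.

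Tsc2 (Entrez Gene 22084), the subunit that switches off Rheb by GTP hydrolysis, varied little. It was at 17.55, 17.21 and 17.64 RPKM in TM4 shNC and at 15.99, 17.32 and 17.38 RPKM in TM4 shM5 libraries. In C18-4 cells it was at 18.29, 20.26 and 23.45 RPKM with shNC and at 18.90, 18.99 and 20.68 RPKM with shM5. The treatments overlapped in both lines. The 95% confidence interval of the difference reached from -0.23 to 0.14 (log2) in TM4 cells and from -0.33 to 0.18 in C18-4 cells. Tsc2 shared 9.41% of its 35-base stretches with other genes, among them Pkd1 on the opposite strand, which was at 3.88 to 6.55 RPKM.

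Rheb (Entrez Gene 19744), the GTPase that activates mTORC1, was the only one of the 10 genes whose TM4 treatments did not overlap. It was at 219.83, 221.73 and 91.51 RPKM with shNC and at 88.68, 83.51 and 88.90 RPKM with shM5. Replicate 3 of shNC lay just above the highest shM5 library, and replicates 1 and 2 of shNC were far above both. How many of all genes did not overlap between the TM4 treatments was not counted. None of the genes tested in TM4 cells passed the threshold (0%), Rheb included. The difference was -0.92 ± 0.34 (log2, SE; adjusted p = 0.19). Without replicate 3 of shNC it was -1.34, or 2.54-fold lower with shM5 (adjusted p = 5.56e-07), in a fit where 67.4% of all genes passed. In C18-4 cells Rheb was at 88.51, 85.32 and 95.46 RPKM with shNC and at 91.63, 86.23 and 91.78 RPKM with shM5, so that these 6 libraries and the 4 lower TM4 libraries all lay between 83.51 and 95.46 RPKM. The interval of the C18-4 difference was narrow, from -0.16 to 0.17 (log2).

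Promoter sequences were taken from RefSeq (GRCm38.p6), in windows of 300 bases around the gene start, and 11 windows matched the 10 genes. They are shown because Rheb and Irs2 were high together in TM4 shNC replicates 1 and 2 and because Akt1 was low there. The letters CACGTG (the E-box core, the same on both strands) were found in the windows of Irs1, Irs2 and Rheb, and in 7.15% of all 32851 windows. The letters GTAAACA (the forkhead core, either strand) were found in 1 window of Akt1 and in 3.65% of all windows. The letters TGATGNAA (either strand) were found in no window of the 10 genes and in 3.97% of all windows. No window of the 10 genes held more than 1 of the 3 motifs. The motifs were chosen after the values were seen, and a match is a description and not a shown binding site. A link of the motifs to expression was not tested. Irs1 was at 2.28 and 2.39 RPKM in TM4 shNC replicates 1 and 2 and at 1.88 to 2.27 RPKM in the other TM4 libraries. Tsc1, Rptor and Mlst8, which also differed in those replicates, held none of the 3 motifs. Capitals mark the match, and each stretch is on the minus strand, upstream of the gene start:
Irs1, chr1:82291537-82291566, minus strand: cagaggctccgtCACGTGttttgctcctct
Irs2, chr8:11008956-11008985, minus strand: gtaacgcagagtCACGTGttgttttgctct
Rheb, chr5:24842440-24842469, minus strand: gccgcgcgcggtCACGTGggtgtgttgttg
Akt1, chr12:112675027-112675056, minus strand: atctaccctctTGTTTACactcctggtgaa
Counted from the gene start, the E-box begins at position -115 in Irs1, -96 in Rheb and -44 in Irs2, and the forkhead match at -161 in Akt1.

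Mtor (Entrez Gene 56717), the kinase of both complexes, varied little within a line. It was at 9.40, 9.24 and 9.01 RPKM in TM4 shNC and at 8.84, 9.02 and 9.28 RPKM in TM4 shM5 libraries. In C18-4 cells it was at 7.07, 7.26 and 8.01 RPKM with shNC and at 7.23, 7.37 and 7.77 RPKM with shM5. The treatments overlapped in both lines, and the lines did not overlap. The 95% confidence interval of the shM5 difference in log2 was -0.22 to 0.17 in TM4 and -0.22 to 0.23 in C18-4 cells.

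Mlst8 (Entrez Gene 56716), the subunit that binds the mTOR kinase domain, was at 5.11, 5.21 and 6.59 RPKM in TM4 shNC and at 6.83, 6.18 and 7.15 RPKM in TM4 shM5 libraries. Replicates 1 and 2 of shNC were the lowest of the 12 libraries. The difference was 0.26 ± 0.13 (log2, SE; adjusted p = 0.22), and 0.37 (adjusted p = 0.0058) without replicate 3 of shNC. In C18-4 cells Mlst8 was at 9.60, 9.14 and 8.43 RPKM with shNC and at 9.57, 8.80 and 10.46 RPKM with shM5, and the treatments overlapped. Mlst8 shared 18.2% of its 35-base stretches with Bricd5 on the opposite strand, which did not exceed 0.09 RPKM in any library.

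Rptor (Entrez Gene 74370), the scaffold that brings substrates to mTORC1, was at 12.78, 12.69 and 10.78 RPKM in TM4 shNC and at 10.28, 11.70 and 11.03 RPKM in TM4 shM5 libraries. It was higher in replicates 1 and 2 of shNC than in the rest. The difference was -0.13 ± 0.11 (log2, SE; adjusted p = 0.38), and -0.21 (adjusted p = 0.029) without replicate 3 of shNC. In C18-4 cells Rptor was at 17.04, 17.57 and 19.25 RPKM with shNC and at 15.94, 16.77 and 18.37 RPKM with shM5. Each shM5 value was lower than the shNC value of the same number, but the groups overlapped (log2 difference -0.08 ± 0.09, SE; adjusted p = 0.83, and 0.41 with the block).

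Rictor (Entrez Gene 78757), which defines mTORC2, was at 7.52, 7.95 and 7.46 RPKM in TM4 shNC and at 7.75, 7.71 and 6.68 RPKM in TM4 shM5 libraries. In C18-4 cells it was at 5.21, 6.44 and 6.88 RPKM with shNC and at 6.48, 6.41 and 7.26 RPKM with shM5. The treatments overlapped in both lines. With or without replicate 3 of TM4 shNC, the TM4 difference stayed small, at -0.05 and -0.07 (log2).

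Counted together, none of the 10 genes passed an adjusted p of 0.05 for shM5 against shNC in either line. In C18-4 cells 0 of 10 passed in limma (1 of 10, Irs1, at an unadjusted p under 0.05), beside 68 of 11611 genes tested, or 0.586%. With the replicate number as a block, 0 of 10 passed beside 11.9% of all genes. The median difference of the 10 genes was 0.01 (log2), against 0.00 for all genes. In TM4 cells 0 of 10 passed in limma (2 of 10, Rheb and Akt1, at an unadjusted p under 0.05), and 0 of 11016 genes passed, or 0%, of which 2866 had an unadjusted p under 0.05. Without replicate 3 of TM4 shNC, 6 of 10 passed, with Akt1 and Mlst8 higher and Rheb, Irs2, Tsc1 and Rptor lower with shM5. In the same fit 67.4% of all 11026 genes passed, so the count of 6 lay near the background. Under the stricter threshold of the study's methods (an FDR up to 0.001 with a log2 change of 1 or more in size), Rheb and Irs2 passed in that reduced set, and Akt1, at 0.96, did not, beside 8.13% of all genes that passed it.

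**Figure D2:**
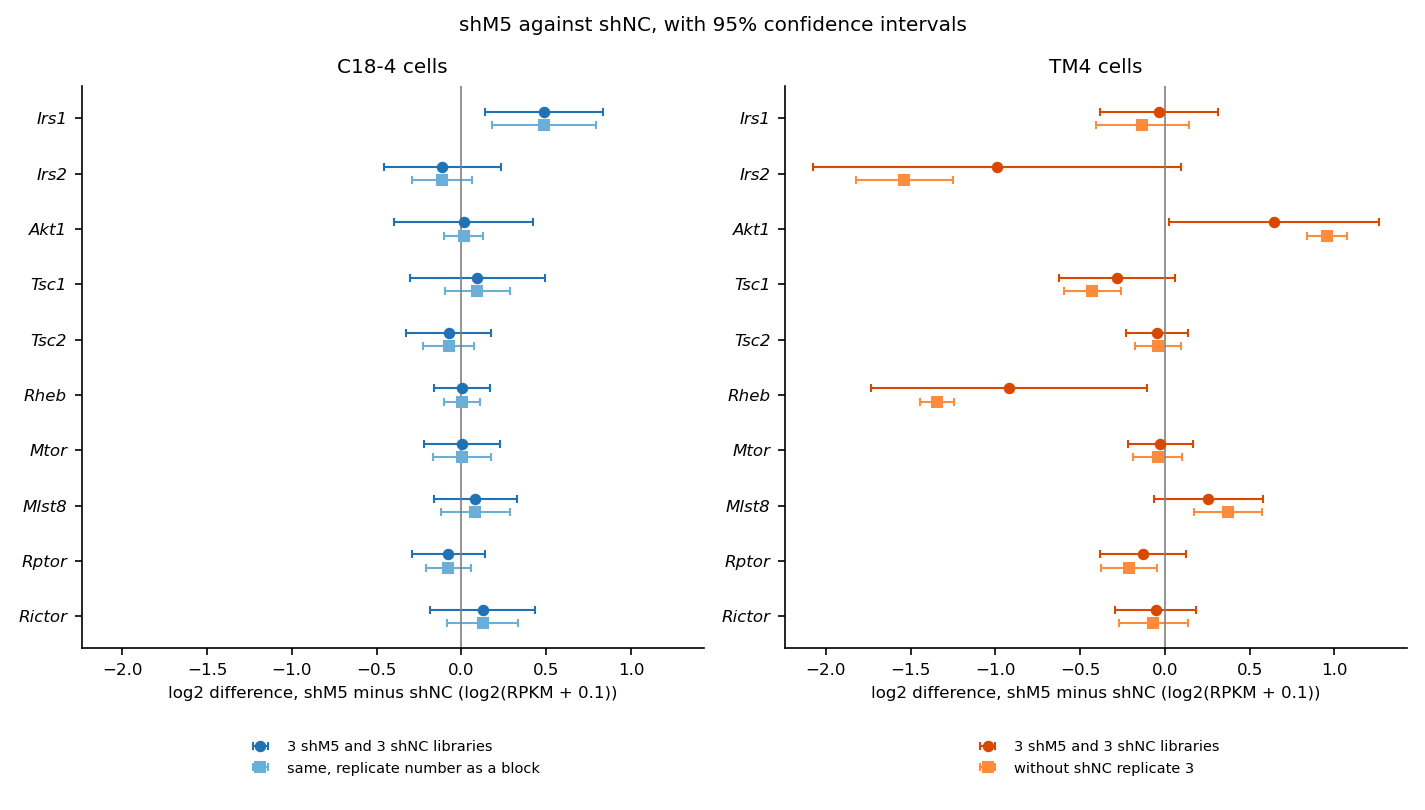
Differences of shM5 minus shNC for the 10 genes, on the log2(RPKM + 0.1) scale, with 95% confidence intervals from limma. In C18-4 cells (left) only the intervals of Irs1 lay off 0, with and without the replicate block, and in TM4 cells (right) the wide intervals of Rheb, Irs2 and Akt1 became narrower and lay farther from 0 when replicate 3 of shNC was left out.

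The difference between the lines in the shM5 effect was tested as an interaction over all 12 libraries. The effects of shM5 on Rheb and Irs1 were more positive in C18-4 than in TM4 cells, by 0.92 ± 0.37 and 0.52 ± 0.20 (log2, SE), but neither passed (adjusted p = 0.22 and 0.21). In limma 0 of 10 genes passed (2 of 10 at an unadjusted p under 0.05), beside 12 of 11773 genes, or 0.102%. With replicate 3 of TM4 shNC left out, 4 of 10 passed, beside 38% of all genes. These were Rheb (1.35, adjusted p = 1.11e-05), Irs2 (1.42, adjusted p = 0.00069), Irs1 (0.62, adjusted p = 0.021) and Akt1 (-0.94, adjusted p = 0.0070). In this fit the TM4 shNC levels of Rheb, Irs2 and Akt1 are those of replicates 1 and 2.

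Several of the 10 mRNAs differed between the lines. Rptor and Mlst8 were higher in C18-4 cells, by 1.51-fold each (log2 0.60 ± 0.07 and 0.60 ± 0.09, SE; adjusted p = 1.13e-05 and 6.36e-05), and Mtor was 1.22-fold lower (log2 -0.29 ± 0.06, SE; adjusted p = 0.0010). The ranges of these 3 genes did not overlap between the 6 libraries of each line, and how many of all genes separated the lines in this way was not counted. Tsc2 (0.22) and Irs1 (0.32) were also higher in C18-4 cells, and Tsc1 (-0.37) and Rictor (-0.22) were lower. In all, 7 of 10 genes passed (4 higher and 3 lower in C18-4), beside 73% of all genes, so that the count itself did not stand out from the background. The median of all genes was 0.14 (log2) in this comparison, and 0.01 after median ratio scaling. After that scaling, under which 73% of all genes passed, Rptor (0.47), Mlst8 (0.47), Mtor (-0.42), Rictor (-0.35) and Tsc1 (-0.50) still passed, Rheb passed as well (-0.54, adjusted p = 0.021), and Tsc2 (0.09) and Irs1 (0.19) no longer did.

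Rptor and Mlst8 also passed within each treatment. Between shNC libraries alone Rptor differed by 0.57 and Mlst8 by 0.68, and between shM5 libraries alone by 0.62 and 0.51 (log2). Tsc1 passed among shNC libraries only (-0.56), and Mtor among shM5 libraries only (-0.28), with -0.31 (adjusted p = 0.061) among shNC libraries. Irs1 passed among shM5 libraries (0.58, adjusted p = 0.0055) but was at 0.06 (adjusted p = 0.78) among shNC libraries. Tsc2 likewise passed among shM5 (0.21, adjusted p = 0.028) and not among shNC libraries (0.23, adjusted p = 0.14). Rictor passed in neither treatment (adjusted p = 0.11 with shNC and 0.26 with shM5). The difference between a gene's values in the 2 treatments is the interaction given above, which passed for 0 of 10 genes with all libraries. In these subsets 3 and 6 of 10 genes passed, beside 55.2% and 71.5% of all genes. Irs2 was 1.91-fold higher in C18-4 than in TM4 cells among shM5 libraries (log2 0.93, adjusted p = 0.00047) but not among shNC libraries (0.06, adjusted p = 0.92). Rheb and Akt1 did not pass over all 12 libraries, and among shM5 libraries their differences were 0.05 and -0.01 (log2), near 0. With the replicate number as a block within each line, Akt1 (adjusted p = 0.037) and Irs2 (adjusted p = 0.034) passed over all 12 libraries as well, as did 76.6% of all genes. Without replicate 3 of TM4 shNC, a fit in which 79.1% of all genes passed, Rheb (-0.63) and Akt1 (0.46) passed and Irs2 was at 0.22 (adjusted p = 0.082), while without replicate 1 or 2 of TM4 shNC Irs2 was at 0.62 or 0.64 and passed (adjusted p = 0.047 and 0.037). The call of Rictor was lost without any 1 of 7 libraries (adjusted p = 0.051 to 0.077), which were C18-4 shNC replicate 1 and replicates 1 and 2 of each of the other 3 groups.

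**Figure D3:**
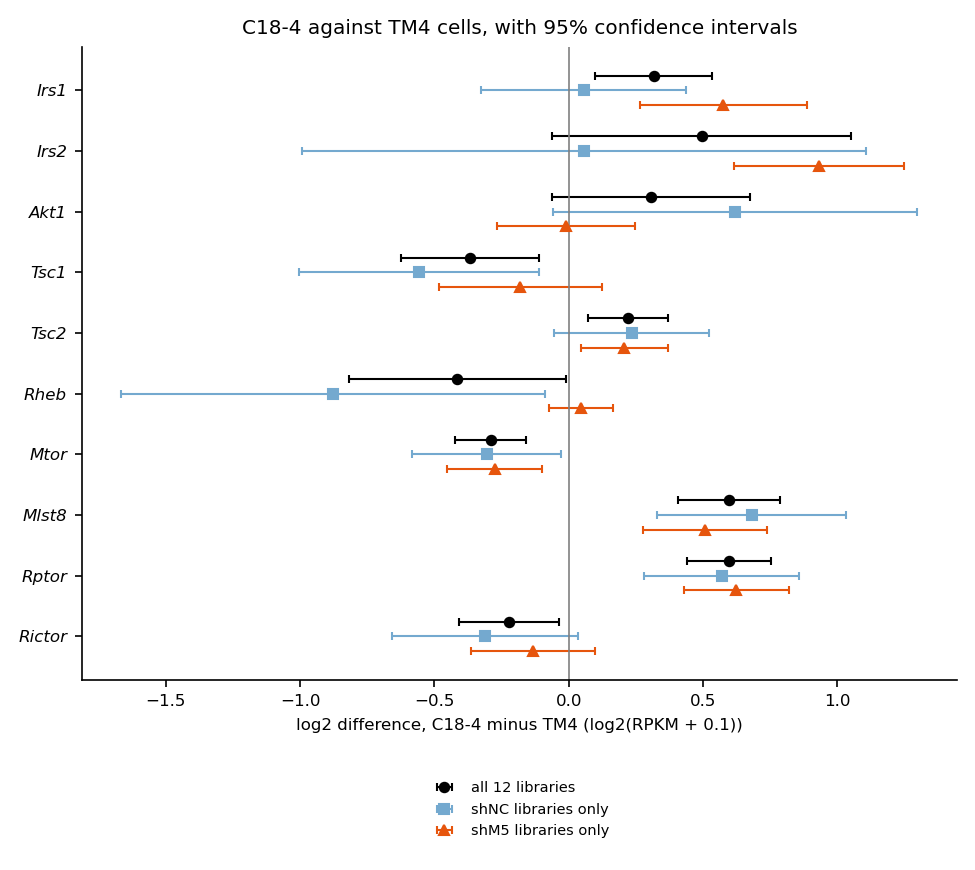
Differences of C18-4 minus TM4 cells for the 10 genes, on the log2(RPKM + 0.1) scale, with 95% confidence intervals from limma, over all 12 libraries and within each treatment. Rptor and Mlst8 lay above 0 and Mtor below 0 in all 3 sets, whereas Rheb, Akt1 and Irs2 changed place between the treatments.

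Ratios within a library do not depend on how libraries are scaled, and they are given as descriptions. The pairs were picked by hand, and how many other ratios separate these groups was not counted. The ratio of Rptor to Rictor, the defining subunits of mTORC1 and mTORC2, was 2.46 to 3.27 in C18-4 and 1.33 to 1.70 in TM4 libraries. The lines did not overlap. In C18-4 cells it was 2.73 to 3.27 with shNC and 2.46 to 2.62 with shM5, so these treatments did not overlap either. The ratio of Irs2 to Irs1 was 4.05 to 4.95 in C18-4 shNC and 2.45 to 3.65 in C18-4 shM5 libraries, again without overlap. In TM4 cells that ratio was 2.35 in replicate 3 and 6.0 to 6.02 in replicates 1 and 2 of shNC, and 2.03 to 2.43 with shM5. The ratio of Rheb to Tsc2, the GTPase and its inhibitor, was 4.07 to 4.85 in C18-4 libraries, where the treatments overlapped. They also overlapped there in the ratio of Rheb to Tsc1 (15.57 to 18.95 with shNC and 13.91 to 18.36 with shM5). In TM4 cells the ratio of Rheb to Tsc2 was 4.82 to 5.55 with shM5, 5.19 in replicate 3 of shNC and 12.53 to 12.88 in replicates 1 and 2 of shNC.

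**Figure D4:**
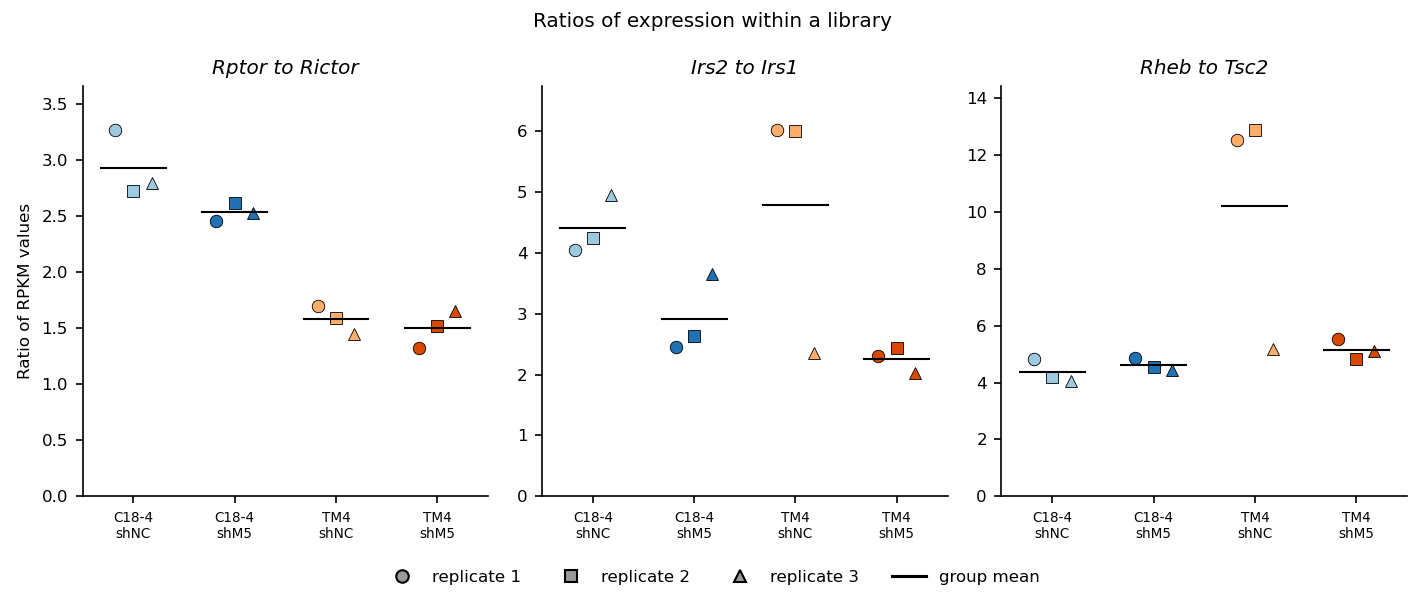
Ratios of RPKM values within each library (linear axis from 0) for Rptor to Rictor, Irs2 to Irs1 and Rheb to Tsc2, with a symbol for each replicate and a line at the group mean (n = 3). Rptor to Rictor separated the lines. In C18-4 cells Rptor to Rictor and Irs2 to Irs1 separated the treatments and Rheb to Tsc2 did not. Rheb to Tsc2 was above 12 in TM4 shNC replicates 1 and 2 only.

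The wider insulin and mTOR pathway was taken as 106 other genes, of which 105 had a value. In C18-4 cells 102 were tested, and 0 passed. With the replicate number as a block 7 of 102 passed, beside the 11.9% of all genes given above, and none of these was a ligand or receptor or a partner in the mTOR complexes. Higher with shM5 were Prkab2 (0.40), a regulatory subunit of the energy sensor AMPK, and Inppl1 (0.19), a lipid phosphatase. Among those lower were Pdcd4 (-0.49), an inhibitor of translation, Eef2k (-0.48), the kinase of elongation factor eEF2, Castor1 (-0.37), an arginine sensor, and Seh1l (-0.25), a subunit of GATOR2. Seh1l was at 49.71, 47.19 and 44.54 RPKM with shNC and at 39.90, 40.27 and 38.85 RPKM with shM5 in these cells, without overlap. As for Irs1, how many of all genes separated in this way was not counted.

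In TM4 cells 95 pathway genes were tested and 0 passed with all libraries. Without replicate 3 of shNC, 70 of 95 passed (38 higher and 32 lower with shM5), beside 67.4% of all genes. By list, 4 of 6 ligands, receptors and adaptors passed, 14 of 18 genes of phosphoinositide 3-kinase and Akt, 8 of 10 partners of the complexes, 21 of 28 of the amino acid arm, 9 of 10 of the energy and stress inputs, 12 of 20 substrates and effectors, and 2 of 3 other docking proteins. The largest increases were Castor2 (1.73), Prr5 (1.65), a subunit of mTORC2, Tfeb (1.23), a transcription factor of lysosome genes that mTORC1 phosphorylates, Pik3r3 (1.16) and Sgk3 (1.02). The largest decreases were Trib3 (-3.10), a pseudokinase that binds Akt, Sesn2 (-1.70), a leucine sensor, Itfg2 (-1.54), a subunit of KICSTOR, Fnip2 (-1.21), a partner of folliculin, and Eif4ebp1 (-1.18), a repressor of translation that mTORC1 phosphorylates. Trib3 was at 80.48, 78.05 and 11.68 RPKM with shNC and at 8.60, 9.01 and 9.83 RPKM with shM5. As for Rheb and Irs2, only replicates 1 and 2 of TM4 shNC were high. Eif4ebp1 was at 854.43, 804.36 and 400.97 RPKM with shNC and at 360.47, 373.68 and 366.77 RPKM with shM5.

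**Figure D5:**
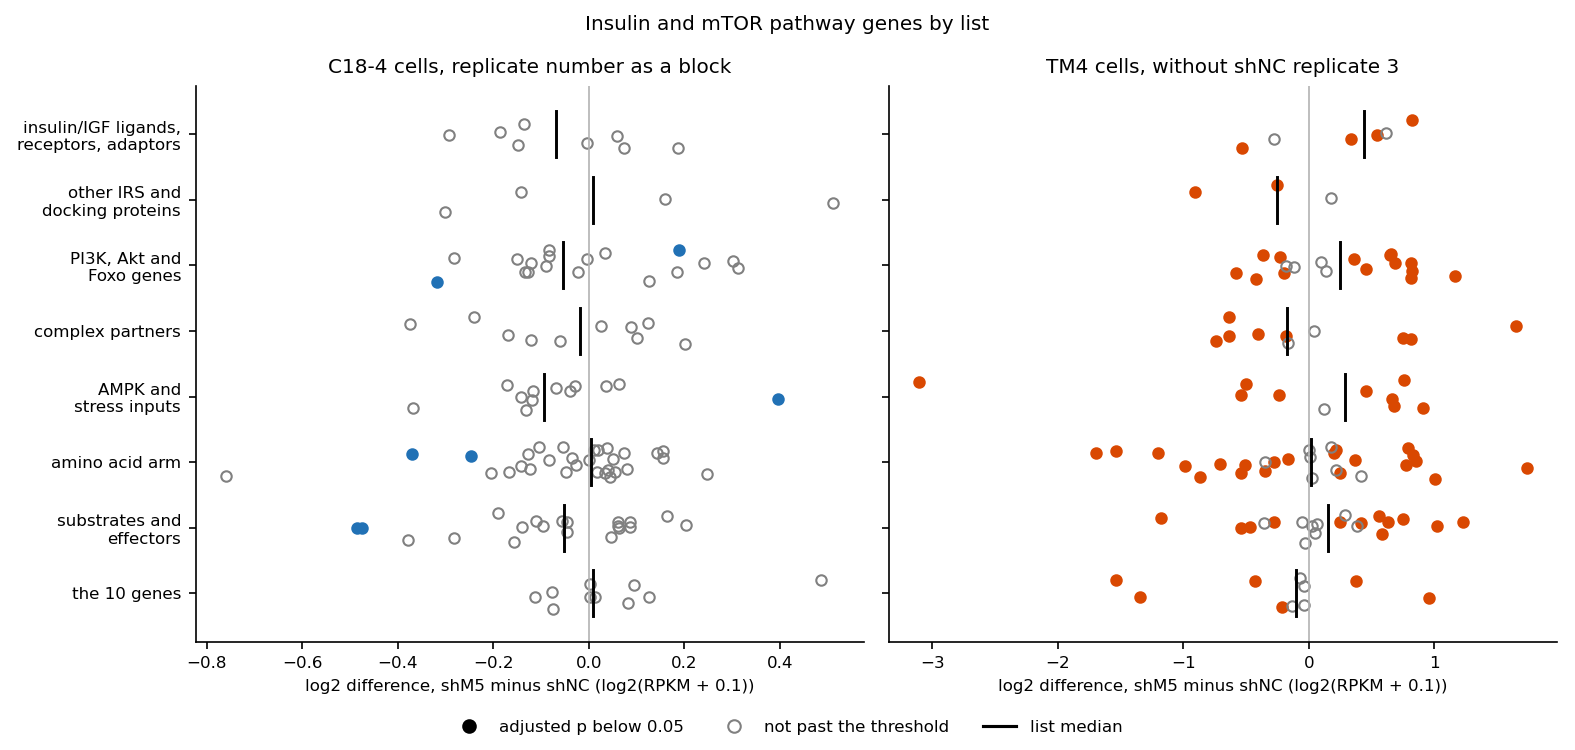
Differences of shM5 minus shNC on the log2(RPKM + 0.1) scale for the pathway genes by list, in C18-4 cells with the replicate number as a block (left) and in TM4 cells without replicate 3 of shNC (right). The horizontal axes differ in range. Filled points passed an adjusted p of 0.05 and short lines are list medians. In C18-4 cells 7 of the 102 pathway genes and none of the 10 genes passed, and in TM4 cells 70 of 95 and 6 of 10 did, with Trib3 the farthest point at -3.10.

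Between the lines, 69 of 100 pathway genes tested passed (34 higher and 35 lower in C18-4), beside 73% of all genes. Higher in C18-4 cells were Grb10, an adaptor that inhibits the insulin receptor, Igf2, a ligand of the IGF1 receptor, the Rag GTPase Rragb, the mTORC1 inhibitor Ddit4l, and Sesn1 (log2 1.85). Grb10 was at 163.54 to 194.01 RPKM in C18-4 and at 0 or 0.01 RPKM in TM4 libraries, and Igf2 was at 7.9 to 13.05 and at 0 to 0.04 RPKM. Rragb was at 4.38 to 6.33 RPKM in C18-4 cells and listed at 0 in all 6 TM4 libraries, and Ddit4l likewise at 0.97 to 1.33 RPKM and at 0. Lower in C18-4 cells were Deptor (-2.09), which binds and inhibits mTOR, Sgk1 (-2.03), a substrate of mTORC2, Fnip2 (-2.02), Ddit4 (-1.94), an inhibitor of mTORC1, and Foxo1 (-1.91), a transcription factor that Akt phosphorylates. Deptor was at 0.86 to 1.43 RPKM in C18-4 and at 3.49 to 6.82 RPKM in TM4 libraries.

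Close relatives of the 10 genes were expressed at lower levels or not at all. Akt2 was at 51.60 to 55.08 RPKM in C18-4 cells, and in TM4 cells at 30.20 and 30.21 RPKM in replicates 1 and 2 of shNC and at 47.82 to 49.74 RPKM in the other 4 libraries. The ratio of Akt1 to Akt2 was between 1.68 and 2.52 in all 12 libraries. Rhebl1, a relative of Rheb, did not exceed 5.84 RPKM. Irs3 was at 0.24 to 0.86 RPKM in C18-4 cells and listed at 0 in TM4 cells, and Irs4 did not exceed 0.06 RPKM.

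The 3 genes with the largest spread over the 12 libraries were Irs2, Rheb and Akt1 (SD of 0.62, 0.51 and 0.40 in log2). Among the 8768 genes that averaged 5 RPKM or more, those closest in pattern, by the root mean square difference in log2 after centring over the 12 libraries, were Zbtb11 (0.065), Dync1li1 (0.074) and Nop58 (0.098) for Rheb. They were Mrpl18 (0.048), Copz1 (0.060) and Hat1 (0.076) for Akt1, and Mdfic (0.166), Aig1 (0.179) and Ghitm (0.192) for Irs2. The pattern of Irs2 was matched less closely than that of Rheb or Akt1. These genes share the 12 libraries with the 10 genes, and the likeness is a description.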

How the data were processed

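RNA-seq of 12 libraries in 4 groups of 3 was used. Poly(A) RNA was sequenced by the authors on the HiSeq platform. They mapped reads to reference genes with SOAPaligner and converted the read number of each gene to RPKM, and the deposited values are RPKM with 2 decimals. The genome build and annotation are not given in the sources used here. RPKM holds no read numbers, so relative depth was estimated from how low values step, in 54 genes. The read number of the mean library came from the 14 of these genes with 1 transcript (quartiles 10.2 and 12.9 M reads). log2(RPKM + 0.1) of genes that averaged 0.5 RPKM or more was fitted with limma (version 3.58.1, R 4.3.3; eBayes with a mean-variance trend), two-sided, with Benjamini-Hochberg adjustment over all genes tested. The authors used DEGseq, which needs reads. Fold changes on this scale understate those of low genes. The script was tested on simulated data with independent noise and no library that stood apart, so that test does not cover the replicate 3 patterns. Samples with the same replicate number deviated together in C18-4 cells (correlations of 0.439, 0.409 and 0.631), with the largest in replicate 3. Replicates 1 and 2 did so nearly as much across numbers (0.341 and 0.345), so only replicate 3 was clearly paired by its number. The numbers were taken to pair the samples and a block was fitted, though the sources name no pairs. In TM4 cells the correlations within a number were 0.073, 0.049 and 0.127. Shared 35-base stretches were counted between transcripts of the GENCODE annotation. Named pathway genes were the 5 a direction with the largest change past the threshold, and all 10 genes were named. Some genes of the pathway lists are not reported here. The genes, lists and tests were chosen with earlier results of these data known. The alternatives were other pseudocounts, filters, scalings, blocks and subsets.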

Additional observations from a re-analysis of the deposited data

How the results depend on the processing

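Of the counts of the 10 genes that passed, C18-4 gave 0 under each alternative except 1 without replicate 3 of each group, TM4 gave 0 to 6 when 1 library was left out and 6 without replicate 3 of each group, and the interaction gave 0 to 4 and 6. Without replicate 3 of each group, 26.2%, 72.7% and 59.9% of all genes passed in these 3 comparisons. The line comparison gave 3 with shNC libraries only (55.2% of all genes), against 7, and 9 with the replicate block (76.6%), without replicate 3 of TM4 shNC (79.1%) or of each group (86.8%). Leaving out replicate 3 of TM4 shNC accounted for the upper ends of 6 and 4. Differences whose sign changed were not past the threshold. When 1 library was left out, they ranged in C18-4 from -0.033 to 0.056 for Mtor, -0.033 to 0.048 for Rheb, -0.042 to 0.228 for Tsc1, -0.159 to 0.019 for Tsc2, -0.163 to 0.145 for Akt1 and -0.223 to 0.020 for Irs2 (log2). In TM4 they ranged from -0.089 to 0.017 for Rictor and -0.133 to 0.033 for Irs1, and in the interaction from -0.006 to 0.083 for Mtor, -0.0007 to 0.135 for Rptor and -0.111 to 0.068 for Tsc2. Without replicate 3 of each group, C18-4 Mlst8 was -0.029 and Akt1 -0.032, and the interaction of Tsc2 was 0.039, which median ratio scaling put at 0.012. With shM5 libraries only, the line differences of Rheb and Akt1 were 0.046 and -0.009. The causes were not tested.

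With the replicate block, 1386 genes passed in C18-4 against 68, 0 in TM4 as without it, and 2 against 12 in the interaction, and the block changed no call of the 10 genes other than Akt1 and Irs2 between lines. In TM4 the samples share only a number. Without a filter on low values 4 genes passed in C18-4, and without replicate 3 of each group 3029. Over single libraries left out, the C18-4 count ran from 0 to 237, and 143 passed in 1 fit of all 12 libraries and 45 without the mean-variance trend. In TM4, 7433 genes passed without replicate 3 of shNC and 8016 without replicate 3 of each group. In the interaction, 4477 and 7022 did, and 27 with a pseudocount of 1, 21 without the filter, 22 without the trend and 5 after median ratio scaling. That scaling changed the line split of all genes from 5163 higher and 3433 lower to 4336 and 4248. The RPKM table gives no counts, so the sampling error of Irs1, the lowest gene, is known only approximately.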

Other observations

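Akt1 was lowest in 4 libraries, replicates 1 and 2 of TM4 shNC and replicate 3 of both C18-4 groups, at 60.06 to 97.91 RPKM, against 114.32 to 133.59 RPKM in the other 8. These 4 libraries were also the highest 4 in Irs2 (10.03 to 14.34 against 4.06 to 9.63 RPKM) and, by a small margin in C18-4 cells, in Rheb (91.78 to 221.73 against 83.51 to 91.63 RPKM). Of the 100 other pathway genes that averaged 0.5 RPKM or more, 12 had these 4 libraries as their highest and 6 as their lowest, and over all 11773 genes 9.83% had them at one end. Among the 12 were Trib3 (78.05 to 106.92 against 8.60 to 36.23 RPKM), Eif4ebp1 (471.91 to 854.43 against 315.85 to 400.97 RPKM), Itfg2 (26.42 to 33.01 against 8.29 to 20.76 RPKM) and Sesn2 (12.99 to 29.04 against 7.55 to 11.58 RPKM). The 6 were Shc1, Pik3r3, Prr5, Eif4ebp2, Eif4g1 and Ulk1. The share of 9.83% counts genes at either end. These 4 libraries were singled out by Akt1, after its values were seen, they include both treatments, and no test was made of them.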
